A study of Mus musculus with 2 samples.

Results

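Nuclear receptors are transcription factors, most of which change the activity of their target genes when a small, fat-soluble ligand binds them. The 45 genes described here were chosen by symbol as the protein-coding receptor genes for steroids, thyroid hormone, retinoids, vitamin D, fatty acids and sterols, with the orphan receptors and without the clock receptor Nr1d1. All 45 were found among the 21474 protein-coding genes, and among 43346 genes in all, and the rule uses no measured value. They were measured by sequencing of polyadenylated RNA from whole lung of a single female C57BL/6J mouse, an adult of 10 weeks, for which the labels give no treatment and no altered genotype. The 2 libraries are replicate 2, which the labels say was made later, and replicate 1, and both are technical replicates of biological replicate 1. Whether a single RNA preparation fed both libraries is not given in the labels, so the steps that the libraries share are not known. With 1 animal and 1 library on each side there is no replicate check, no p-value is given, and nothing here describes a difference between animals or conditions. The design can answer which receptors this lung expressed and by how much each level varied from library to library.

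A nuclear receptor joins a DNA-binding domain, made of zinc fingers, to a ligand-binding domain that exchanges corepressors for coactivators when ligand arrives. Steroid receptors wait in complexes with chaperones and act as dimers of their own kind, whereas receptors for thyroid hormone, retinoic acid, vitamin D, fatty acids and oxysterols pair with the retinoid X receptors. In the lung, the glucocorticoid receptor is needed for maturation of the airspaces before birth, retinoic acid receptors act in alveolar formation, and PPARγ is a defining regulator of alveolar macrophages.

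Levels are given in TPM, the authors' abundance per 1000000 transcripts, which allows for gene length. Genes are set side by side by TPM within each library, and their order differed between the libraries, as given below. A difference between libraries is given as the ratio of replicate 2 over replicate 1, from expected counts scaled between the libraries by the TMM method, with an exact Clopper-Pearson interval at 95% that covers counting error only. The library totals were 17110882 expected counts in replicate 2 and 16104442 in replicate 1. A count of 0 allows an abundance of up to 3 counts, or 0.175 CPM (counts per 1000000) in replicate 2 and 0.186 CPM in replicate 1. Lung markers were present in both libraries but at different levels. Of 8 markers of alveolar and airway epithelium, all 8 reached a TPM of 1 in replicate 2 and 7 in replicate 1, and 6 were over 2-fold higher and 1 lower in replicate 2, with a median log2 ratio of 4.66. The surfactant gene Sftpc had 39612 TPM in replicate 2 against 287 TPM in replicate 1, and the club cell gene Scgb1a1 had 174257 TPM in replicate 2 against 17498 TPM in replicate 1. Another surfactant gene, Sftpa1, had 4344 TPM in replicate 2 against 1808 TPM in replicate 1. By scaled counts it was within 2-fold, with a log2 ratio of 0.16. The lower marker, Rtkn2, had 57.64 TPM in replicate 2 against 135.91 TPM in replicate 1.

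Paralogs of this family encode nearly the same DNA-binding domain with different codons. For every receptor gene the main coding transcript of GENCODE release M21 on GRCm38 was read, and the stretch from the first to the last zinc-binding cysteine codon was found by its spacing in 36 of the 45 genes. The 3 pairs printed here were chosen after their ratios were seen, because the paralogs of each had opposite ratios between the libraries. Capitals mark the bases that differ within a pair. The first pair is the thyroid hormone receptors Thra (chr11:98756958-98760983, plus strand) and Thrb (chr14:18002563-18008676, plus strand), each over 2 exons on GRCm38.
Thra: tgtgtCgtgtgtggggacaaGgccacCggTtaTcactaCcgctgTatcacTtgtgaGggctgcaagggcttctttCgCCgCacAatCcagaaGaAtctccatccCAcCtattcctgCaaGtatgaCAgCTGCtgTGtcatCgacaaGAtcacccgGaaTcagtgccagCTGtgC
Thrb: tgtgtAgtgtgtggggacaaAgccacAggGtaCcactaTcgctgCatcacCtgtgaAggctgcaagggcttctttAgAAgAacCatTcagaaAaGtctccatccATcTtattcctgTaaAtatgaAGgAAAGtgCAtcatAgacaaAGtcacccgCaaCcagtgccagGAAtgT
The second pair is the retinoic acid receptors Rara (chr11:98966430-98968146, plus strand) and Rarb (chr14:16508974-16548479, minus strand), also over 2 exons each.
Rara: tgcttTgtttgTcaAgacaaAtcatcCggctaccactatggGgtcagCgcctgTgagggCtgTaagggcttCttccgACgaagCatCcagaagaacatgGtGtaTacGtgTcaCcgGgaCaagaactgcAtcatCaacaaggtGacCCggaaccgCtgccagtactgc
Rarb: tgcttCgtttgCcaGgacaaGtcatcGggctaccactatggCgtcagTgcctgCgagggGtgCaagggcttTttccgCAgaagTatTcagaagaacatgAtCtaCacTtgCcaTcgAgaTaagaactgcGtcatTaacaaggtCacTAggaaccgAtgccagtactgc
The third pair is the orphan receptors Nr2f6 (chr8:71378429-71381103, minus strand) over 2 exons, and Nr2f2 (chr7:70359928-70360095, minus strand), within 1 exon.
Nr2f6: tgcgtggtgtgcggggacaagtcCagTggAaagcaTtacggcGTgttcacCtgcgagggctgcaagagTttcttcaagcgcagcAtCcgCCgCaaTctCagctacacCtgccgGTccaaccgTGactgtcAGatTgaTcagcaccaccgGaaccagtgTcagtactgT
Nr2f2: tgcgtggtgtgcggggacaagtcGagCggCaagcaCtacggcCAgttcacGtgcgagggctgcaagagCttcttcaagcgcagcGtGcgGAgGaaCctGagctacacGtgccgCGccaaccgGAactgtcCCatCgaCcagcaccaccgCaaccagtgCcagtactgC

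Of the 174 bases of the Thra and Thrb domains 39 differed, 28 of them at the third base of a codon, and 50 of 58 encoded residues were the same. Of the differing bases, 23 were G or C in Thra and A or T in Thrb, and 10 were the reverse. Rara and Rarb differed at 29 of 168 bases and encoded the same residue at 54 of 56 codons, with 14 bases that were G or C in Rara alone and 10 in Rarb alone. Nr2f6 and Nr2f2 differed at 27 of 168 bases and shared 51 of 56 residues, with 2 bases that were G or C in Nr2f6 alone and 13 in Nr2f2 alone. Thra and Rara, richer in G and C in this stretch than their paralogs, were higher in replicate 2 than in replicate 1. Nr2f2, richer than Nr2f6 at 63.7% against 57.1%, was lower in replicate 2 than in replicate 1.

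The lung RNA held transcripts of most of the family at low to moderate levels. With detection set at a mean of 1 TPM, 30 of the 45 receptor genes were detected, beside 60.6% of all protein-coding genes. A level of 1 TPM or more was reached by 20 receptor genes in both libraries, beside 49.9% of protein-coding genes. Another 9 reached it in replicate 2 only (10.7% of protein-coding genes) and 3 in replicate 1 only (2.33%). In bulk tissue, fewer cells of a type and less RNA per cell cannot be told apart. The other 15 receptor genes were below that mean, and 5 of them had no counts in either library. Summed over the 45 genes, TPM was 479.6 in replicate 2 and 403 in replicate 1, which is 0.048% of the whole of replicate 2 and 0.0403% of replicate 1.

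The order of the receptors differed between the libraries. In replicate 2 the highest levels were those of Thra at 66.28 TPM, Nr1h2 at 52.93 TPM, Nr1h3 at 47.87 TPM, Nr4a1 at 44.4 TPM and Nr2f6 at 30.75 TPM. In replicate 1 they were those of Nr2f2 at 123.43 TPM, Nr3c1 at 92.65 TPM, Nr1d2 at 53.97 TPM, Nr2c2 at 21.27 TPM and Rora at 16.83 TPM. The 5 highest genes were different in each library and held 50.5% of the family's TPM in replicate 2 and 76.5% in replicate 1. Only Nr3c1 and Nr2f2 were among the 10 highest in both. Across the 45 genes the levels in the libraries had a Spearman rho of 0.619, and across the 30 detected genes 0.002, both as descriptions. The rho over all genes was not computed, so whether these values are particular to the receptors is not known.

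**Figure D1:**
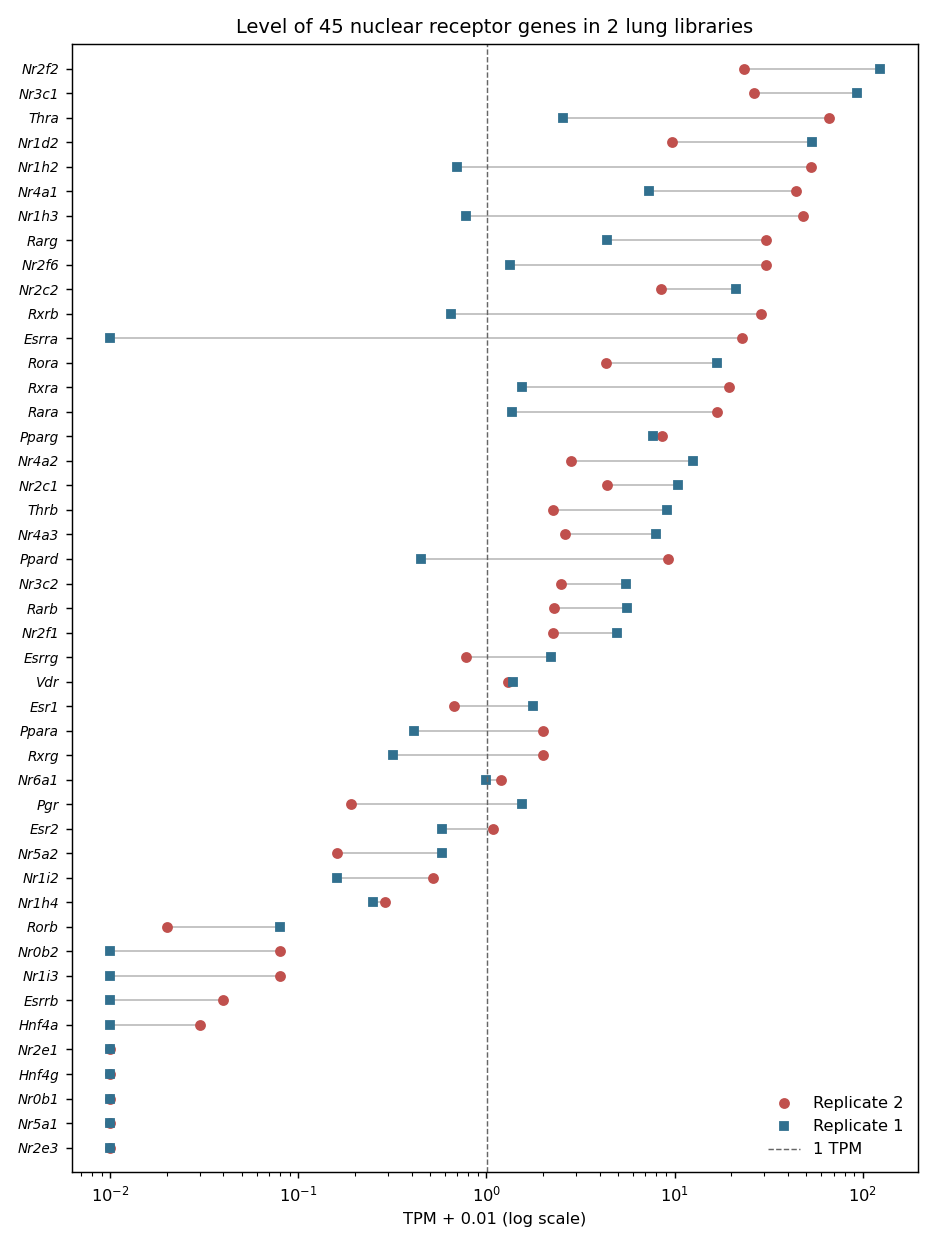
Level of each of the 45 receptor genes in replicate 2 (red circles) and replicate 1 (blue squares), as TPM + 0.01 on a log axis, with genes ordered by mean TPM and a dashed line at 1 TPM. Pparg, Vdr and Nr6a1 have overlapping or neighbouring points, while Esrra stands at 22.69 TPM in replicate 2 and at 0 in replicate 1.

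The steroid receptors were led by the glucocorticoid receptor in both libraries. Nr3c1 (ENSMUSG00000024431.10, chr18:39410545-39519421 on GRCm38, minus strand), which binds corticosterone in the mouse, had 26.4 TPM in replicate 2 (2456 counts) against 92.65 TPM in replicate 1 (6362 counts). It was 3.30-fold lower in replicate 2 (3.15 to 3.46), and its mean was 59.5 ± 46.8 TPM (SD, n = 2 libraries). The mineralocorticoid receptor Nr3c2, which binds aldosterone and also glucocorticoids, had 2.47 TPM in replicate 2 against 5.52 TPM in replicate 1 and was 2.02-fold lower (1.69 to 2.40), just past the 2-fold line. The oestrogen receptor gene Esr1 had 0.66 TPM in replicate 2 against 1.75 TPM in replicate 1 and was 2.34-fold lower (1.70 to 3.25). Its paralog Esr2, below the mean of 1 TPM, had 1.08 TPM in replicate 2 against 0.57 TPM in replicate 1. Pgr, the progesterone receptor gene, had 0.18 TPM in replicate 2 (19 counts) against 1.54 TPM in replicate 1 (113 counts). Every steroid receptor gene except Esr2 thus had its lower level in replicate 2.

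The retinoid X receptors, the common partners of many other receptors, had their higher levels in replicate 2. Rxra had 19.34 TPM in replicate 2 against 1.53 TPM in replicate 1 and was 13.96-fold higher in replicate 2 (11.2 to 17.7). Rxrb had 28.93 TPM in replicate 2 (966 counts) against 0.64 TPM in replicate 1 (15 counts), a ratio of 50.5 (30.5 to 90.7). Rxrg, known from muscle and brain, had 2.0 TPM in replicate 2 (46 counts) against 0.31 TPM in replicate 1 (5 counts). The sum of the 3 genes was 50.27 TPM in replicate 2 against 2.48 TPM in replicate 1. In replicate 1 that sum was below the levels of single partner genes such as Thrb at 9.14 TPM and Pparg at 7.71 TPM.

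The liver X receptors, sensors of oxysterols that drive cholesterol export, had the largest ratios among the receptors counted in both libraries. Nr1h2 (LXRβ, ENSMUSG00000060601.8, chr7:44549616-44553951, minus strand) had 52.93 TPM in replicate 2 against 0.69 TPM in replicate 1. These levels rest on 1397 counts in replicate 2 and 8 in replicate 1, a ratio of 137 with an interval of 69.4 to 318. Nr1h3 (LXRα, ENSMUSG00000002108.6, chr2:91184061-91202834, minus strand), the form abundant in macrophages, had 47.87 TPM in replicate 2 (1192 counts) against 0.77 TPM in replicate 1 (14 counts), a ratio of 66.8 (39.7 to 123). Both genes were thus under a TPM of 1 in replicate 1 and among the 3 highest receptors in replicate 2.

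The retinoic acid receptors split by gene. Rarg had 30.5 TPM in replicate 2 against 4.34 TPM in replicate 1 and was 22.5-fold higher in replicate 2 (16.6 to 31.3), and Rara had 16.75 TPM in replicate 2 against 1.36 TPM in replicate 1, 12.96-fold higher (9.59 to 17.9). The log2 ratio of Rarg was 4.48 from counts and 2.81 from TPM, and in replicate 1 most of its TPM was assigned to a short transcript. The log2 ratio from counts and from TPM also differed by over 1.5 times in fold for Thra (5.29 and 4.70), Nr1h2 (7.01 and 6.24) and Ppara (1.19 and 2.28). So did that of Esrra (10.1 and 11.1), where both values depend on the small number added to its 0 in replicate 1. Rarb, itself a known target of retinoic acid, had 2.27 TPM in replicate 2 against 5.55 TPM in replicate 1 and was 2.21-fold lower (1.72 to 2.85). Exons of Rarb share 1793 bases with exons of Top2b on the opposite strand, which had 23.26 TPM in replicate 2 against 108.88 TPM in replicate 1. Whether the counting used strand is not given in the sources used here, so reads of the genes in such a pair may not be separable.

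The thyroid hormone receptors had opposite ratios. Thra (ENSMUSG00000058756.9, chr11:98740638-98769006, plus strand) had 66.28 TPM in replicate 2 (2261 counts) against 2.54 TPM in replicate 1 (45 counts), and was 39.4-fold higher in replicate 2 (29.4 to 54.2). Thrb, the form of liver and of feedback in the pituitary, had 2.26 TPM in replicate 2 against 9.14 TPM in replicate 1 and was 3.66-fold lower (3.12 to 4.30). Thra shares 263 exonic bases with Nr1d1 on the opposite strand, at 14.53 TPM in replicate 2 against 0.7 TPM in replicate 1.

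The PPARs, receptors for fatty acids, included the receptor of the family nearest to equal levels at moderate expression. Pparg (ENSMUSG00000000440.8, chr6:115360951-115490399, plus strand), which alveolar macrophages and fat cells need, had 8.57 TPM in replicate 2 against 7.71 TPM in replicate 1. From 218 counts in replicate 2 and 143 in replicate 1 its ratio was 1.20 (0.964 to 1.49), an interval that includes 1. Ppard, a broadly expressed form, had 9.24 TPM in replicate 2 (423 counts) against 0.44 TPM in replicate 1 (15 counts), and was 22.1-fold higher in replicate 2 (13.3 to 39.9). Ppara, which drives fatty acid oxidation in liver, had 1.98 TPM in replicate 2 (30 counts) against 0.4 TPM in replicate 1 (10 counts), with a ratio of 2.35 and an interval from 1.12 to 5.40. The vitamin D receptor Vdr had 1.3 TPM in replicate 2 against 1.37 TPM in replicate 1, a ratio of 1.05 (0.754 to 1.48).

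The COUP-TF genes, orphan receptors of mesenchyme, veins and lymphatics, held the highest mean level of the family. Nr2f2 (COUP-TFII, ENSMUSG00000030551.9, chr7:70351944-70366735, minus strand) had 23.23 TPM in replicate 2 (1294 counts) against 123.43 TPM in replicate 1 (5350 counts), and was 5.27-fold lower in replicate 2 (4.96 to 5.60). Its mean was 73.3 ± 70.9 TPM (SD, n = 2 libraries). Nr2f1 (COUP-TFI) had 2.24 TPM in replicate 2 against 4.92 TPM in replicate 1 and was 2.71-fold lower (2.06 to 3.60). Nr2f6, a more distant relative, had 30.75 TPM in replicate 2 against 1.32 TPM in replicate 1 and was 21.3-fold higher (14.8 to 31.7). Exons of Nr2f6 share 1622 bases with those of Ocel1 on the opposite strand, which had 7.74 TPM in replicate 2 against 1.31 TPM in replicate 1. The testicular receptors Nr2c1 and Nr2c2, broadly expressed repressors despite their name, kept a nearly constant proportion. Nr2c2 had 8.42 TPM in replicate 2 against 21.27 TPM in replicate 1, and Nr2c1 had 4.38 TPM in replicate 2 against 10.4 TPM in replicate 1, so that Nr2c2 held 65.8% of the pair in replicate 2 and 67.2% in replicate 1. Nr2c2 was 2.29-fold lower in replicate 2 (2.12 to 2.48) and Nr2c1 2.15-fold lower (1.83 to 2.53). Exons of Nr2c2 share 4590 bases with those of Mrps25 on the opposite strand, at 26.96 TPM in replicate 2 against 10.84 TPM in replicate 1.

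The NR4A genes, immediate early orphan receptors that need no ligand and are induced quickly by many stimuli, also split. Nr4a1 had 44.4 TPM in replicate 2 against 7.33 TPM in replicate 1 and was 6.70-fold higher in replicate 2 (5.76 to 7.83). Nr4a2 had 2.79 TPM in replicate 2 against 12.52 TPM in replicate 1, 3.88-fold lower (3.19 to 4.74), and Nr4a3 had 2.6 TPM in replicate 2 against 7.94 TPM in replicate 1, 2.70-fold lower (2.28 to 3.20). Nr4a1 alone of the 3 was therefore higher in replicate 2.

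The oestrogen-related receptors, orphan regulators of mitochondrial metabolism, gave the only detected receptor with no count in 1 library. Esrra (ENSMUSG00000024955.9, chr19:6910977-6921813, minus strand) had 22.69 TPM from 682 counts in replicate 2 and 0 counts in replicate 1. With its 0 counts set to the floor of 3 counts it was 178-fold higher in replicate 2, and the lower end of the exact interval was 144.7. Esrrg had 0.77 TPM in replicate 2 against 2.2 TPM in replicate 1 and was 3.65-fold lower (2.57 to 5.27), and Esrrb had 2 counts in replicate 2 and 0 in replicate 1.

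Nr1d2 and Rora, which act in the circadian clock, were lower in replicate 2. Nr1d2 (REV-ERBβ), a repressor of the clock loop, had 9.72 TPM in replicate 2 against 53.97 TPM in replicate 1 with a log2 ratio of -2.32, or 4.60-fold to 5.45-fold lower in replicate 2. Rora, an activator at the same elements that also acts in innate lymphoid cells, had 4.33 TPM in replicate 2 against 16.83 TPM in replicate 1 and was 3.82-fold lower (3.49 to 4.18). Rorb, known from brain and retina, had 1 count in replicate 2 and 6 counts in replicate 1. The germ cell receptor Nr6a1 had 1.18 TPM in replicate 2 against 0.99 TPM in replicate 1, a ratio of 1.16 (0.832 to 1.62).

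Receptors of liver, gut, gland and retina were below 1 TPM in both libraries. No count was recorded in either library for Hnf4g and Nr5a1, known from gut and steroid-making glands, for Nr0b1, which acts with Nr5a1 in those glands, or for Nr2e1 and Nr2e3, known from neural stem cells and photoreceptors. Hnf4a had 1 count in replicate 2 and 0 in replicate 1, and Nr0b2, a repressor in bile acid feedback, likewise had 1 in replicate 2 and 0 in replicate 1. Nr1i3 (CAR), a sensor of foreign compounds, had 3 counts in replicate 2 and 0 in replicate 1, and its exons share 3304 bases with Tomm40l on the opposite strand, at 38.31 TPM in replicate 2 against 4.99 TPM in replicate 1. Nr1i2 (PXR), with the same role, had 19 counts in replicate 2 and 4 in replicate 1, the bile acid receptor Nr1h4 had 8 in replicate 2 and 5 in replicate 1, and Nr5a2, known from liver and ovary, had 11 in replicate 2 and 29 in replicate 1. The markers of the organs where these receptors are known were low too. Liver markers summed to 2.87 TPM in replicate 2 against 1.57 TPM in replicate 1, and no count was recorded for 1 of the 5 in replicate 2 and for 3 of the 5 in replicate 1. Intestinal markers summed to 0.44 TPM in replicate 2 against 0.2 TPM in replicate 1, and the intestinal regulators Cdx1 and Cdx2 were at 0 in both libraries. Markers of steroid-making glands summed to 0.72 TPM in replicate 2 against 1.17 TPM in replicate 1.

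Of the 30 detected receptors, 13 were more than 2-fold higher in replicate 2 than in replicate 1. They make 43.3% of the receptors, beside 39.3% of all 14139 genes and 39.6% of protein-coding genes past the same mean. A further 14, or 46.7%, were more than 2-fold lower in replicate 2, beside 28.2% of all genes and 27.9% of protein-coding genes. The other 3 (Pparg, Vdr and Nr6a1) lay within 2-fold. Of the 30, 10 were under 1 TPM in 1 library, from Nr6a1 at 0.99 TPM in replicate 1 to Esrra at 0, and reached the mean through the other. Among the 20 receptors with at least 1 TPM in both libraries, 6 were higher and 12 lower. The shares of all genes under that filter were not computed, so these counts have no background beside them. The receptors' median log2 ratio was 0.14, and that of all genes was 0.19, also with genes at 0 set to 3 counts. Scaled by total counts, which moves the median of all genes to 0.45, 13 receptors were higher and 9 lower. Shares of all genes were not computed for this scaling either. The 13 higher receptors summed to 373.7 TPM in replicate 2 against 21.67 TPM in replicate 1, and the 14 lower ones to 92.54 TPM in replicate 2 against 368.1 TPM in replicate 1.

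Receptors higher and lower in replicate 2 differed in the base composition of their transcripts. GC content, averaged over each gene's annotated transcripts, was 53.4% to 64.6% in the 13 higher receptors and 45.3% to 54.3% in the 14 lower ones, so the ranges overlapped by less than 1 percentage point. Above 55% GC, a line drawn after the values were seen, all 11 detected receptors were over 2-fold higher in replicate 2, beside 87.6% of 3397 genes. At or below that line 2 of 19 receptors, Ppara and Rxrg, were higher and 14 were lower, beside 24% and 36.6% of 10670 genes. The ratio and GC content had a Spearman rho of 0.763 over the 30 receptors and 0.820 over 14067 genes, with Pearson's r of 0.825 and 0.765. These correlations run across genes of the same libraries, which are not independent, and the part of base composition in the ratios was not tested.

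Another measure was how low GC content went in the most AT-rich stretches, taken as the 10th percentile over windows of 180 bases along each gene's main transcript. It was 48.9% to 57.8% in the higher receptors and 28.9% to 46.1% in the lower ones, with no overlap. The rho of this window measure with the ratio was 0.932 over the 30 receptors and 0.896 over 14107 genes. For GC content of the whole main transcript, on the same genes, it was 0.799 and 0.872. Sorted by the window measure, 13 of the 14 lower receptors came first, at up to 36.1%, and the 13 higher ones last. Between them were Nr6a1 at 37.8%, Pparg at 42.8% and Vdr at 43.9%, the 3 receptors within 2-fold, and the remaining lower receptor, Thrb, at 46.1%. The value of Thrb is uncertain, because its main transcript has 1758 bases in GENCODE M21 and 5997 bases in the deposited tables, so most of the transcript that was quantified was not read. That of Ppara, 49.1%, is uncertain too. It was read from Ppara-205, a transcript of 315 bases without a coding part, which had 2.92 counts in replicate 2 and 0 in replicate 1.

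**Figure D2:**
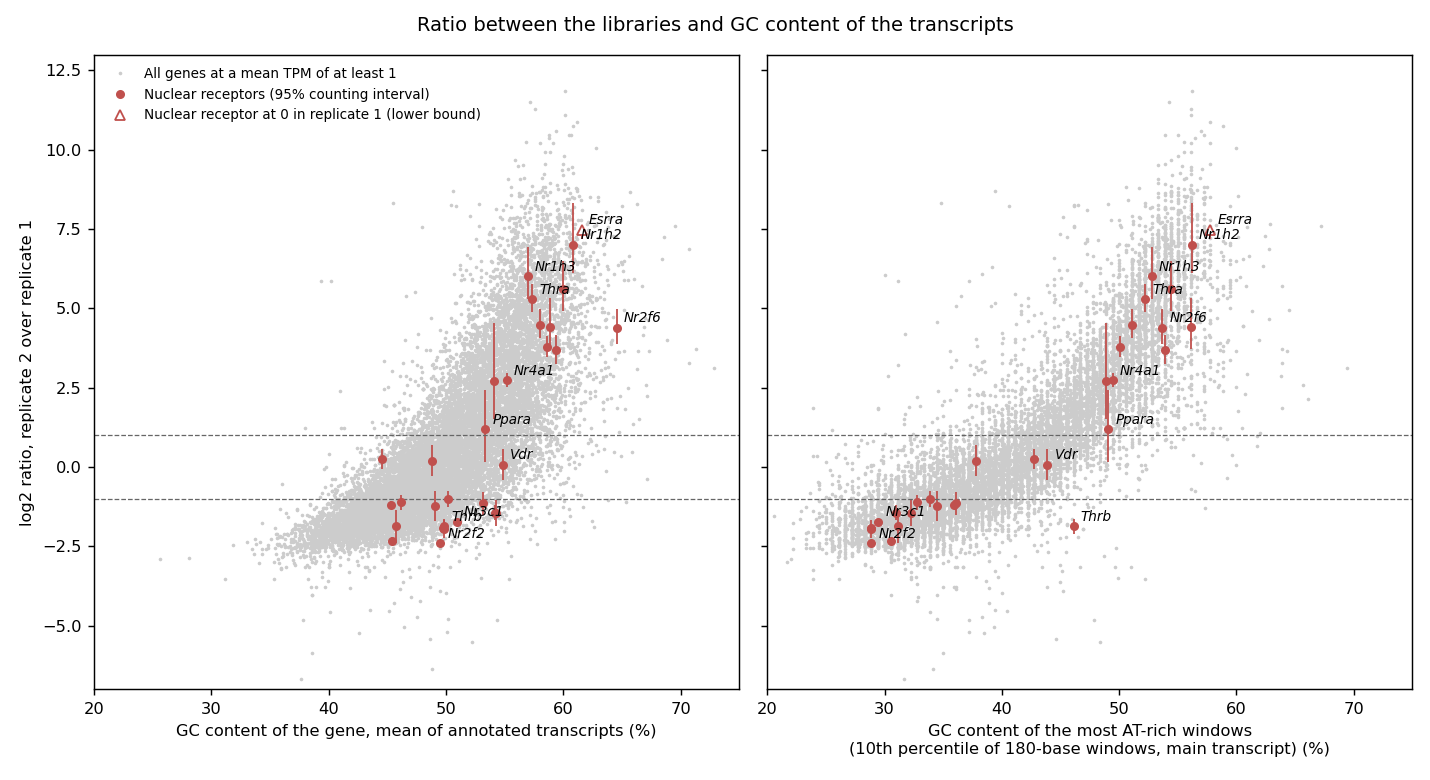
Log2 ratio of replicate 2 over replicate 1 against the GC content of the gene (left) and of its most AT-rich windows (right), in percent, for all detected genes (grey) and the 30 receptors (red circles with 95% counting intervals). Genes at 0 in 1 library are drawn at 3 counts, Esrra as an open triangle, and dashed lines mark a 2-fold difference. Thrb at 46.1%, read from a transcript of 1758 bases, lies below the other receptors of like window GC.

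With the trend of all genes on window GC subtracted, few receptors stayed over 2-fold from it. Esrra was 2.36 above the trend on the log2 scale, but -0.23 when its 0 counts were set to 3, so no receptor was over 2-fold above it at that floor. Below the trend were Thrb at -3.47, from the incomplete transcript, Ppard at -2.42, Rara at -1.98, Ppara at -1.78 and Nr2f6 at -1.16. These 5 of 30 receptors stand beside 11.9% of all genes below the trend. Above it, with counts of 0 not set to 3, were 1 of 30 receptors and 14.3% of all genes. The share of all genes above it at that floor was not computed. The value of Ppara rests on its transcript of 315 bases. With the trend on whole-gene GC content subtracted, 5 receptors were higher and 14 lower, beside 22.6% and 20.5% of all genes, and the receptors' median was -0.75 against -0.02 for all genes.

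The ratio was also set against the base composition of each part of the main coding transcript. Over the 30 receptors the ratio had a rho of 0.841 with the GC content of the 3′ UTR, 0.481 with that of the coding part, 0.295 with that of the 5′ UTR (29 genes) and -0.568 with transcript length. In Nr2f2 the parts differed. Its DNA-binding stretch printed above has G or C at the third position of 98.2% of its codons, the highest share of the 36 found, and its coding part is 62.1% GC. Its 3′ UTR is 36.1% GC over 2716 bases, and the gene was 5.27-fold lower in replicate 2. Nr2f1 was alike, at 62.7% GC in the coding part and 36.0% in the 3′ UTR. Pparg had the lowest 3′ UTR value of the detected receptors, 27.1% over 207 bases, with a log2 ratio of 0.26. Nr2f6, higher in replicate 2, had 67.8% in the coding part and 47.4% in the 3′ UTR, and its 3′ UTR has 359 bases. Thra had 57.6% in the coding part and 56.8% in the 3′ UTR, against 51.0% and 43.4% for Thrb, whose 3′ UTR has only 129 bases in the shortened M21 transcript.

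**Figure D3:**
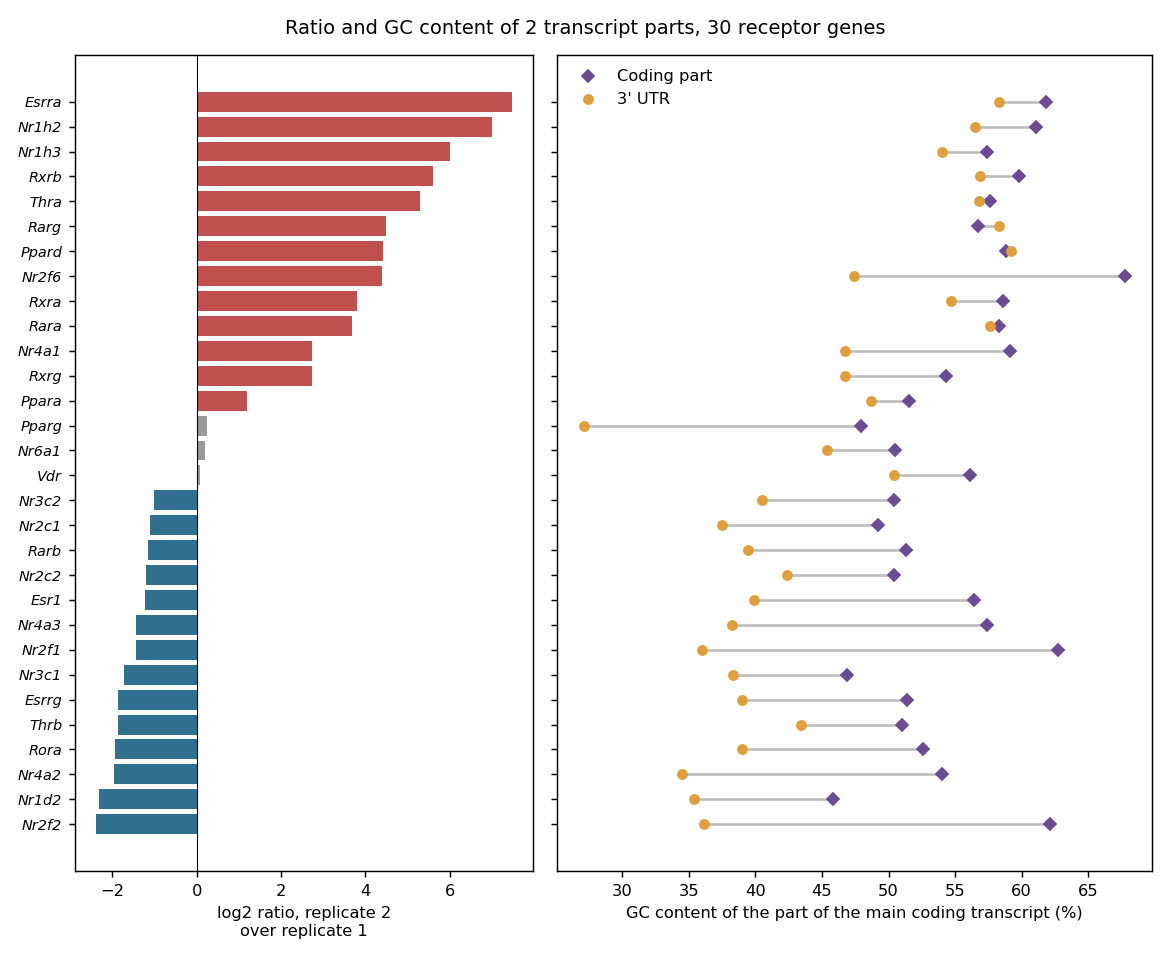
Left, log2 ratio of replicate 2 over replicate 1 for the 30 detected receptors, red where over 2-fold higher, blue where over 2-fold lower and grey between, with Esrra at its lower bound. Right, GC content in percent of the coding part (diamonds) and the 3′ UTR (circles) of each receptor's main coding transcript, where Nr2f2 and Nr2f1 combine a GC-rich coding part with an AT-rich 3′ UTR of 36.1% and 36.0%.

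Which paralog led its subfamily depended on the library. The receptors form 17 subfamilies of 2 or 3 paralogs, and in 11 of them the leading gene had at least 1 TPM in each library. The leader was the same in 3 subfamilies, with Nr3c1, Nr2c2 and Rora, and another gene in 8. Thra held 96.7% of the thyroid hormone receptor TPM in replicate 2 and 21.7% in replicate 1. Nr2f6 held 54.7% of its subfamily in replicate 2 and 1.02% in replicate 1, where Nr2f2 held 95.2%. Among the retinoic acid receptors Rarg led in replicate 2 with 61.6%, and Rarb led in replicate 1 with 49.3%. Among the PPARs Ppard held 46.7% and Pparg 43.3% in replicate 2, whereas Pparg held 90.2% in replicate 1. Nr4a1 held 89.2% of the NR4A genes in replicate 2 and 26.4% in replicate 1, where Nr4a2 led with 45.1%. The retinoid X receptors were led by Rxrb in replicate 2 with 57.5% and by Rxra in replicate 1 with 61.7%, where Rxra had 81 counts and Rxrb 15. Esrra led the oestrogen-related receptors with 96.6% in replicate 2, and Esrrg held all of that TPM in replicate 1. Esr2 held 62.1% of the oestrogen receptor TPM in replicate 2 and 24.6% in replicate 1, from 51 counts in replicate 2 and 18 in replicate 1. The leader was thus stable in the glucocorticoid and mineralocorticoid pair, in the testicular receptors and in the ROR pair. In these subfamilies the detected members lay on the same side of the 2-fold line. The retinoid X receptors also lay on the same side, all higher in replicate 2, but their leader changed.

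**Figure D4:**
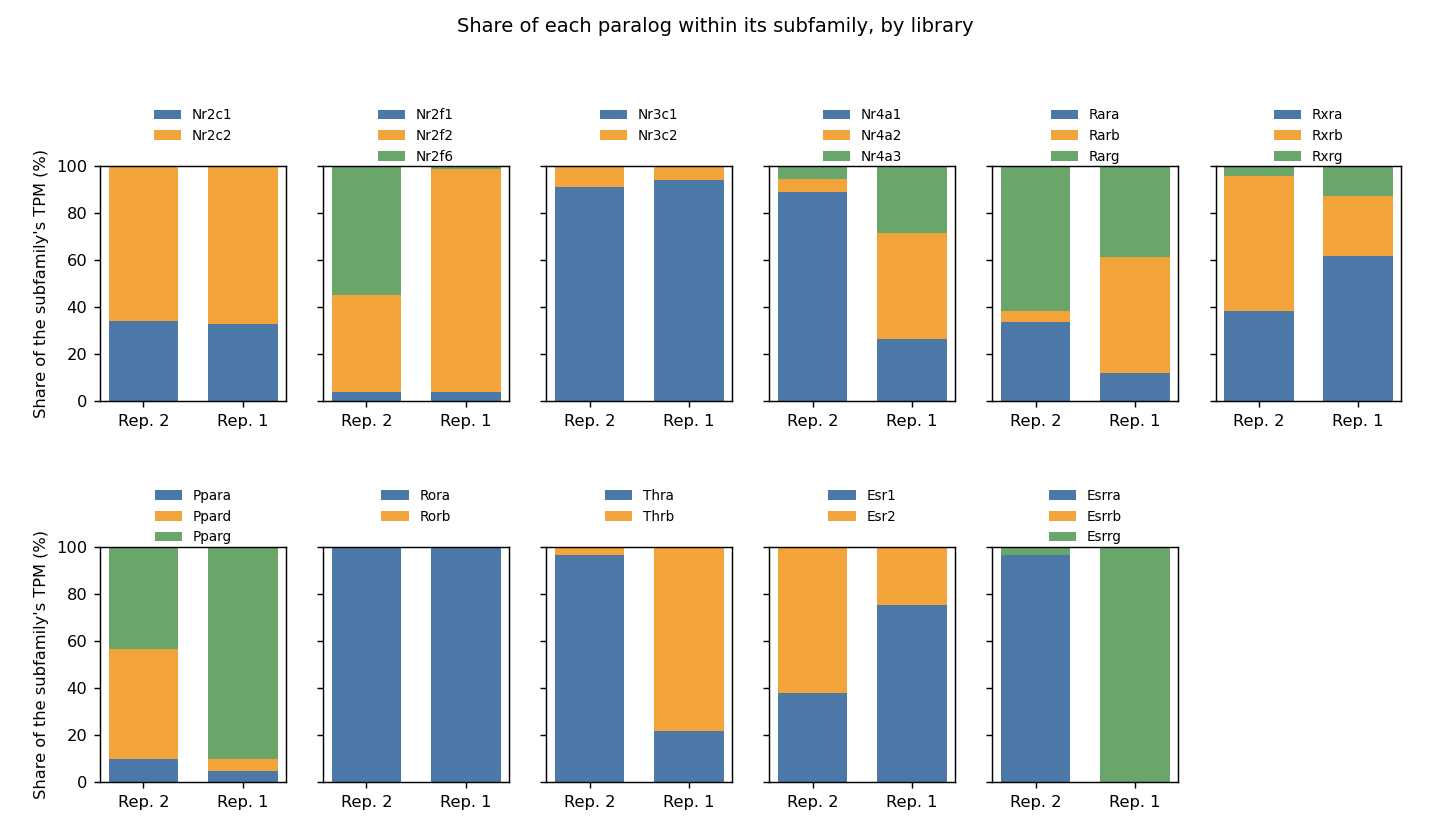
Share of each paralog in its subfamily's TPM, in percent, for replicate 2 (left bar) and replicate 1 (right bar) in the 11 subfamilies whose leading gene had at least 1 TPM in each library. The bars keep their order for Nr2c1/Nr2c2, Nr3c1/Nr3c2 and Rora/Rorb, and another gene takes the largest share in the other 8.

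Most receptors kept their main transcript, by the deposited percent of a gene's abundance that each transcript holds. Of 28 detected receptors with more than 1 annotated transcript, 27 had a transcript above 0 in both libraries, and the transcript of highest share was the same in 21 and another in 6 (Pparg, Nr4a2, Rara, Rarg, Nr1h2 and Ppara). The share of all genes with another main transcript was not computed, so these counts have no background beside them. The promoters of Pparg give the forms γ2, common in fat, and γ1, common in macrophages. Pparg-201, of 505 codons as in γ2, held 69.09% in replicate 2 and 21.71% in replicate 1, or 5.92 TPM in replicate 2 against 1.67 TPM in replicate 1. Pparg-202, of 475 codons as in γ1, held 30.91% in replicate 2 and 78.29% in replicate 1, or 2.65 TPM in replicate 2 against 6.04 TPM in replicate 1. The nearly equal level of the Pparg gene therefore summed 2 transcripts with opposite differences. The GC content was 45.3% for Pparg-201 and 50.2% for Pparg-202 in GENCODE M21, where both are annotated with other lengths than in the deposited tables. The adipose markers stood at sums of 226.2 TPM in replicate 2 against 110.1 TPM in replicate 1, with 4 of 6 over 2-fold higher in replicate 2, and Adipoq, the adiponectin gene of fat cells, at 90.14 TPM in replicate 2 against 99.96 TPM in replicate 1. The part of fat tissue in the Pparg forms was not tested.

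Nr4a2 was mainly Nr4a2-203, a coding transcript of 598 codons, in replicate 2, at 76.0% against 12.34% in replicate 1. In replicate 1 it was mainly Nr4a2-206, annotated as a target of nonsense-mediated decay, with 7.41% in replicate 2 and 87.66% in replicate 1. In TPM the coding form was at 2.12 in replicate 2 and 1.54 in replicate 1, and the decay form at 0.21 in replicate 2 and 10.97 in replicate 1. As the reads were assigned, the lower level of Nr4a2 in replicate 2 was thus a difference in the decay form. For Rara, Rarg, Nr1h2 and Ppara the main transcript of at least 1 library rested on 45 counts or fewer. Rarg was 77.26% Rarg-202 in replicate 2, and in replicate 1 it was 92.66% Rarg-205, a short form of 227 codons, from 33.96 counts.

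Thra, Rora and Nr3c1 kept their main transcript. Thra-201, of 492 codons as in the α2 form that does not bind thyroid hormone, held 81.89% in replicate 2 and 58.83% in replicate 1, and Thra-202, of 410 codons as in the hormone receptor α1, held 11.78% in replicate 2 and 5.79% in replicate 1. Part of the rest in replicate 1 was the 64-codon Thra-208, at 35.38% from 3.59 counts. The α2 form is the one whose end overlaps Nr1d1 on the other strand. Rora-201, of 523 codons as in α1, held 86.91% in replicate 2 and 96.24% in replicate 1, and Rora-202, of 467 codons, held 3.38% in replicate 2 and 0.28% in replicate 1. A transcript of 792 codons held 77.55% of Nr3c1 in replicate 2 and 99.87% in replicate 1, while another of the same coding length held 17.33% in replicate 2 and 0 in replicate 1.

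Genes that work with the receptors were described from lists, with the same fold and the same background shares of 39.3% higher and 28.2% lower. A gene on 2 lists counts in both. Of 12 detected coactivators, which carry acetyltransferases and Mediator to ligand-bound receptors, 2 were higher and 7 lower in replicate 2, with a median log2 ratio of -1.08. Ncoa7 had the lowest ratio, at 6.64 TPM in replicate 2 against 36.94 TPM in replicate 1, and the PGC-1-related gene Pprc1 the highest, with 8.03 TPM in replicate 2 against 4.49 TPM in replicate 1. Ncoa6 had 10.63 TPM in replicate 2 against 38.43 TPM in replicate 1, but from 593 counts in replicate 2 and 745 in replicate 1 its log2 ratio was -0.68, within 2-fold. The demethylase gene Kdm6a had 9.12 TPM in replicate 2 against 36.99 TPM in replicate 1. Of 10 corepressors 4 were higher and 4 lower. Ncor1, a scaffold of the repressor complex on unliganded receptors, had 25.12 TPM in replicate 2 against 47.71 TPM in replicate 1. Hdac3, the deacetylase of that complex, had 32.11 TPM in replicate 2 against 15.24 TPM in replicate 1, and Gps2, another of its subunits, had 40.0 TPM in replicate 2 against 6.16 TPM in replicate 1. Nrip1, which represses liganded receptors, had the lowest ratio, with 3.18 TPM in replicate 2 against 13.13 TPM in replicate 1.

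Of 9 chaperones that hold steroid receptors ready, 5 were higher and 2 lower in replicate 2. Hspa8 had 939.88 TPM in replicate 2 against 842.45 TPM in replicate 1, within 2-fold. Hsp90aa1 had 227.79 TPM in replicate 2 against 959.09 TPM in replicate 1, and Hsp90ab1, the constitutive HSP90, had 594.23 TPM in replicate 2 against 503.2 TPM in replicate 1. Ptges3, the cochaperone p23, had 107.07 TPM in replicate 2 against 587.35 TPM in replicate 1, and Fkbp4 had 126.03 TPM in replicate 2 against 23.11 TPM in replicate 1. The scaled count ratio of Hsp90ab1 was 1.59 on the log2 scale, above the ratio of its TPM, which also depends on the lengths of the transcripts that reads were assigned to.

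Among 18 enzymes that make or remove ligands 10 were detected, 2 of them higher and 4 lower in replicate 2. Aldh1a1, which makes retinoic acid, had 731.72 TPM in replicate 2 against 1784.73 TPM in replicate 1. Hsd11b1, which regenerates active glucocorticoid, was within 2-fold, with 275.04 TPM in replicate 2 against 464.08 TPM in replicate 1. Dhrs3, a retinal reductase, had 97.62 TPM in replicate 2 against 27.98 TPM in replicate 1. Cyp27a1, an oxysterol-forming enzyme, had the highest ratio with 17.3 TPM in replicate 2 against 3.34 TPM in replicate 1, and Dio2, which activates thyroid hormone, the lowest at 0.57 TPM in replicate 2 against 1.67 TPM in replicate 1.

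Known target genes were read only for the receptor classes named here and in the next paragraph, and each of these lists held detected genes. Of 12 glucocorticoid targets, all detected, 7 were higher and 1 lower in replicate 2, where the receptor gene itself was lower. Tsc22d3 (GILZ) had 208.24 TPM in replicate 2 against 418.03 TPM in replicate 1, and Dusp1 had 179.58 TPM in replicate 2 against 198.09 TPM in replicate 1, both within 2-fold by counts. Sgk1 had 65.55 TPM in replicate 2 against 145.34 TPM in replicate 1, and the metallothionein gene Mt1, the highest ratio, had 149.83 TPM in replicate 2 against 2.23 TPM in replicate 1. PPAR targets split evenly, with 4 of 12 higher and 4 lower. Cd36, a fatty acid transporter, had 506.83 TPM in replicate 2 against 2232.08 TPM in replicate 1, Fabp4 had 477.68 TPM in replicate 2 against 459.52 TPM in replicate 1, within 2-fold, Lpl, which releases fatty acids from lipoproteins, had 88.0 TPM in replicate 2 against 352.96 TPM in replicate 1, and Ucp2 had 229.41 TPM in replicate 2 against 2.67 TPM in replicate 1. Of 9 detected LXR targets 4 were higher and 2 lower, from Apoe at 936.55 TPM in replicate 2 against 3.68 TPM in replicate 1 to the cholesterol exporter Abca1 at 6.44 TPM in replicate 2 against 32.97 TPM in replicate 1. The desaturase genes Scd1 and Scd2 had 440.1 and 129.15 TPM in replicate 2 against 1130.79 and 199.61 TPM in replicate 1, with Scd2 within 2-fold.

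The shorter target lists were similar in kind. Of 8 retinoic acid targets 5 were detected, and 3 of these were higher and 0 lower in replicate 2. The transglutaminase gene Tgm2 had 146.84 TPM in replicate 2 against 2.91 TPM in replicate 1. Hoxa5 had 25.97 TPM in replicate 2 against 53.47 TPM in replicate 1. By counts Hoxa5 was within 2-fold. Of 5 thyroid hormone targets 4 were detected, and 3 of these were higher and 0 lower. Thrsp had 50.06 TPM in replicate 2 against 8.15 TPM in replicate 1. Klf9 had 25.23 TPM in replicate 2 against 46.33 TPM in replicate 1, within 2-fold. Bcl3, counted 298 times in replicate 2 and 0 times in replicate 1, was 77.95-fold higher with its 0 set to 3 counts. The lower end of its exact interval was 5.98 on the log2 scale. With Bcl3 at 3 counts in replicate 1 the list's median was 4.52. Of 5 CAR and PXR targets 3 were detected, and 0 of these were higher and 1 lower. The cytochrome gene Cyp2b10, also made by club cells, had 173.32 TPM in replicate 2 against 145.24 TPM in replicate 1, within 2-fold, while Nr1i3 was near 0 in both. Cyp3a13 had 2.35 TPM in replicate 2 against 7.93 TPM in replicate 1.

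**Figure D5:**
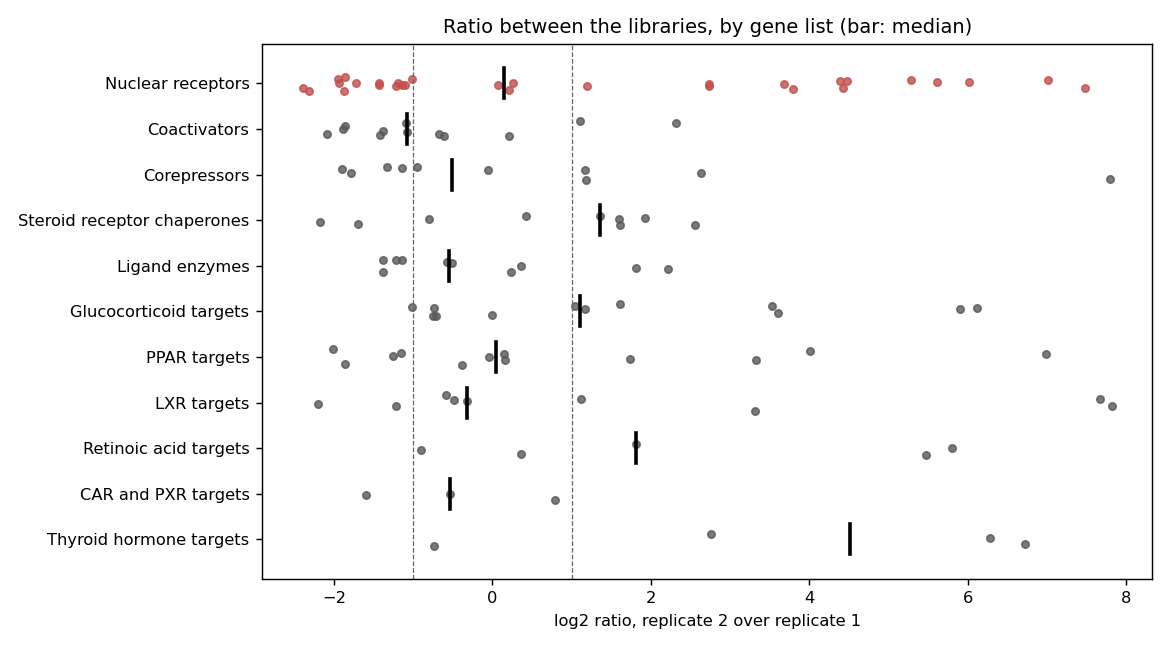
Log2 ratio of replicate 2 over replicate 1 for each detected gene (points, spread vertically at random) of the receptors and of 10 lists of their partners, enzymes and targets, with a bar at each median and dashed lines at a 2-fold difference. Genes at 0 in replicate 1 are drawn at 3 counts, and every list reaches both sides of 0.

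Markers of other cell types also differed between the libraries. Of 7 cardiac muscle markers all were over 2-fold higher in replicate 2, with sums of 1357 TPM in replicate 2 against 114.7 TPM in replicate 1. Of 7 detected alveolar macrophage markers 4 were higher and 2 lower, with sums of 1230 TPM in replicate 2 against 2039 TPM in replicate 1. Among 5 endothelial markers 2 were higher and 2 lower. The epithelial markers, given above, had a median log2 ratio of 4.66. The part of these cell types in the levels of the receptors was not tested. The median GC content was 52.6% for the epithelial markers, 55% for the cardiac markers and 51.5% for the macrophage markers.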

How the data were processed

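Per the labels, polyadenylated RNA of 1 mouse lung was sequenced in 2 libraries, with RNA extracted by a column kit for lipid-rich tissue. The deposited tables use mm10 and annotation release M4, per the deposited file descriptions, and no aligner or quantifier is named in the sources used here. The values analysed were the authors' expected counts, which estimate the reads of each gene and transcript, per the file headers. TPM and FPKM values were computed by the authors, per the file headers, and TPM was also deposited as a posterior mean. The percent of its gene held by each transcript was deposited by the authors. The bounds of a credibility interval of TPM, a signal that the authors also deposited, were not used.

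Symbols, positions, transcript parts and sequences came from GENCODE M21 on GRCm38, and 42462 of 43346 genes matched by identifier. The 26345 further entries with numeric or spike-in identifiers, all at 0, were left out. All expected counts of the receptor genes were whole within 0.005. Counts were rounded, scaled by TMM (edgeR 4.0.16, R 4.3.3; factors 1.095 for replicate 2 and 0.913 for replicate 1), and ratios used a prior of 0.5 counts. Genes with a TPM averaging 1 or more were compared, a difference was called over 2-fold, and trends were lowess fits with a span of 0.3. No molecular identifiers are named in the sources used here, so intervals and the floor of 3 counts cover counting error only. The ratio calculation was tested on simulated data in which few genes changed, as many up as down, and no GC trend was set. That test therefore does not cover the scaling of libraries that differ as widely as these. Python 3.11.15, pandas 2.3.3, scipy 1.17.1 and statsmodels 0.14.6 were used. All 45 receptors are given with both values. From each list of partners, enzymes and targets the 3 genes of highest mean TPM and the highest and lowest ratio were eligible to be named. A gene that this rule would name is not reported here. Transcripts were named where the main one differed between libraries, and for Pparg, Thra, Rora and Nr3c1. The receptors, lists and settings were chosen with earlier results of these data known. The trend on AT-rich windows and the 55% line were chosen after seeing the data. Alternatives covered scaling, TPM minimum, fold, GC trends, posterior mean TPM and each library alone.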

Additional observations from a re-analysis of the deposited data

How the results depend on the processing

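The number of receptors detected was 30 and ranged from 20 to 32 over other TPM minimums, posterior mean TPM and each library alone, with 29 from replicate 2 alone and 23 from replicate 1 alone. DESeq2 size factors (DESeq2 1.42.0) and the ratio of TPM kept all 30 receptors on their side of the 2-fold line. Of receptors over 2-fold lower in replicate 2, 14 became 9 by total counts, 5 at a mean TPM of at least 10, 2 at a fold of 4 and 5 with the AT-rich window trend subtracted. Of those higher, 13 became 5 with the GC trend and 1 with the window trend subtracted. The median log2 ratio was 4.09 at a mean TPM of at least 10, where 14 receptors remained to be counted, 9 of them higher. The shares of all genes were not computed by total counts, at that minimum or at a fold of 4.

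Among receptors over 2-fold apart, directions turned under the subtracted trends and under no other scaling. With the GC trend these were Nr2f6 at -2.21, Rara at -1.04, Rxra at -0.59, Ppara at -0.54 and Ppard at -0.057. With the window trend they were Ppard at -2.42, Rara at -1.98, Ppara at -1.78, Nr2f6 at -1.16, Nr4a1 at -0.44, Rxrb at -0.35, Rxrg at -0.16, Esr1 at 0.007, Nr3c1 at 0.021, Nr2f1 at 0.075, Nr4a3 at 0.20, Nr3c2 at 0.30 and Nr2c1 at 0.35. Of the receptors within 2-fold, Vdr at 0.07 became -0.08 by the ratio of TPM, -2.41 with the GC trend and -0.72 with the window trend, and Pparg at 0.26 became -0.20 with the window trend. A subtracted trend removes what a gene shares with genes of like GC content, whatever its source, and the cause was not tested.

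The 8 subfamilies with another leader stayed 8 with posterior mean TPM and with FPKM. Receptors with another main transcript were 6, or 9 by posterior mean share, and the cause of that was not tested. Ppara, among the 6, had the same main transcript in both libraries by posterior mean share. No paired analysis was possible because both libraries belong to 1 group. Depth limits receptors with few counts, such as Ppara, Rxrg and those below a TPM of 1.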
